A study of Mus musculus with 10 samples.

Results

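The genes of the interleukin-1, tumour necrosis factor and NF-kB feedback group were followed through 10 RNA-seq libraries of microglia, the resident macrophages of the brain. The group was set as a list of 10 genes out of 24453 gene symbols in the table, and all 10 were found there: Il1b, Il1a, Tnf, Il1rn, Nlrp3, Casp1, Ptgs2, Nfkbia, Nfkbiz and Tnfaip3. Each was also read against S100a8, a neutrophil granule gene, library by library. The cells were taken from C57bl6 mouse brains with magnetic beads, and the mice were untreated. The aged group held 3 libraries from mice of 15 months, set against 3 libraries of the young group from mice of 10 weeks. A separate pair held 2 libraries labelled Rab7 deltaMG, named as null mutants for the late endosomal GTPase Rab7, set against 2 libraries labelled Rab7 Control, all from mice of 3 months. The promoter or Cre line behind the deletion is not given in the sources used here, and the labels do not say that libraries of a group came from separate animals. The p-values therefore rest on how much these libraries vary, and some of that variation may be technical.

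Interleukin-1 alpha and beta are cytokines that act on a shared receptor, and the product of Il1rn occupies that receptor without signalling. Il1b is made as a precursor that caspase-1, encoded by Casp1, cuts inside the inflammasome, a protein complex that Nlrp3 can assemble. Tnf encodes a cytokine that, like interleukin-1, turns on the transcription factor NF-kB, and NF-kB in turn induces genes that limit it, among them Nfkbia (IkB alpha, which holds NF-kB in the cytoplasm) and Tnfaip3 (A20, a ubiquitin-editing enzyme). Nfkbiz encodes IkB zeta, a nuclear regulator of secondary NF-kB targets, and Ptgs2 the inducible cyclooxygenase of prostaglandin synthesis. In the brain microglia are a main source of these cytokines, and neutrophils express several of the same genes.

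No unit was given, and the values were read as RPM, reads scaled to the total of each library. On that reading 1 read was worth 0.101 to 0.164 RPM, which gave 6098275 to 9907458 reads behind the scaling. The genes listed in the table would then hold only 18.7% to 23.5% of that total, or 1284409 to 1855047 reads a library. Of the listed reads, the entry Rn45s took 7.64% to 11.8%. The labelled cell type was checked on 12 microglial markers, all of them measured above the filter, which summed to 3940 to 4403 RPM in aged and 6038 to 6786 RPM in young libraries. These ranges did not overlap, and 7 of the 12 markers fell in aged libraries, where 2.99% of all tested genes fell. The part of this shift in the ageing results for Il1b and Tnf was not tested. The markers summed to 5076 to 6557 RPM in the libraries labelled deltaMG and 5733 to 6135 RPM in those labelled control. Of the 12 markers, 3 had a log2 difference above 0 there, as 48.0% of all tested genes did. Only Cx3cr1 was called with limma, higher in the libraries labelled deltaMG, where 1.20% of all tested genes were called higher. Rab7 itself was at 72.2 and 79.4 RPM in the libraries labelled deltaMG, against 64.2 and 67.5 RPM in those labelled control. It was not lower in the labelled mutants (log2 difference 0.20, limma adjusted p = 0.668), so the groups are called by their labels below. Xist was at 0.127 to 0.940 RPM in aged and 1715 to 1771 RPM in young libraries, so age and sex cannot be told apart in the ageing comparison. Libraries labelled deltaMG held both Xist, at 1171 and 1562 RPM, and Y-linked transcripts, at 20.3 and 9.11 RPM in sum. Those labelled control likewise held Xist at 1410 and 924 RPM and Y-linked transcripts at 19.3 and 25.8 RPM, so each of these 4 libraries held transcripts of both sexes, in shares that differed.

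The RefSeq promoter table (build GRCm38.p6) held 13 windows for 9 of the 10 genes, with none for Nfkbiz. The 250 bases before the annotated start are shown for 5 genes that the results turn on, each written 5′ to 3′ on the strand of its gene. Il1b and Tnf are shown as the cytokines called in the ageing comparison, Ptgs2 as the enzyme called with Il1b in the other comparison, and Nfkbia and Tnfaip3 as the feedback genes. Capitals mark matches on either strand to a pair of NF-kB (kappaB-type) patterns that can overlap each other, or to TATAAA, the TATA box. The long kappaB-type pattern is GGG, any 2 bases and TTTCC, and the short one is GGANTTTCC, where N is any base.
Il1b (chr2:129371140-129371389, minus strand): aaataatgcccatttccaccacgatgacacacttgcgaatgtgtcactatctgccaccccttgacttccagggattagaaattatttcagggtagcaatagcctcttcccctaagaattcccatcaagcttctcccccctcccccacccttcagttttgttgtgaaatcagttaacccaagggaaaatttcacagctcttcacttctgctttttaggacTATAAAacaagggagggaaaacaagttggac
Tnf (chr17:35202008-35202257, minus strand): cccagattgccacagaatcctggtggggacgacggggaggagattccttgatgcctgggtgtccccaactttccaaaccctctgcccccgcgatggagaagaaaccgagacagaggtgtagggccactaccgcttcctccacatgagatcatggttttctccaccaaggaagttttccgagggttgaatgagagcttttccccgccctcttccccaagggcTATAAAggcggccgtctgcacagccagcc
Ptgs2 (chr1:150099781-150100030, plus strand): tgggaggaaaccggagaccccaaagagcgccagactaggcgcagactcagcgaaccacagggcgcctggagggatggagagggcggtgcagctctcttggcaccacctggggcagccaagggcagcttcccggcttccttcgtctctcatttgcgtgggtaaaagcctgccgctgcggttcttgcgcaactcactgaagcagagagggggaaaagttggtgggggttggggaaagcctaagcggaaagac
Nfkbia (chr12:55492648-55492897, minus strand): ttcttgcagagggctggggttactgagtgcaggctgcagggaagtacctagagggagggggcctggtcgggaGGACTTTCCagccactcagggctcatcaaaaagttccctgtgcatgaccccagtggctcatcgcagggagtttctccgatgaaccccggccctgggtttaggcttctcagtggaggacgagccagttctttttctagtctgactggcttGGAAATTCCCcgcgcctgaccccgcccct
Tnfaip3 (chr10:19015411-19015660, minus strand): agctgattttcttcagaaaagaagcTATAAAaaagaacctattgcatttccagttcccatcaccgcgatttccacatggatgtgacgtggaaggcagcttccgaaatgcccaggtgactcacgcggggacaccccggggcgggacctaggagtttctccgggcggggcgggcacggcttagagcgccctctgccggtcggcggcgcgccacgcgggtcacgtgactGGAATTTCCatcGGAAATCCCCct
A TATAAA match began 31 bases before the start of Il1b and 29 bases before that of Tnf, and Il1a had one at 32 bases. Tnfaip3 had one at 225 bases. TATAAA was found in 12.4% of all 32851 promoter windows of this length. The feedback genes carried kappaB-type matches, at 178 and 29 bases before the start of Nfkbia and at 24 and 12 bases before that of Tnfaip3. The long pattern was found in 1.41% and the short one in 1.07% of all windows, and at least 1 of them in 2.11%. A further window of Il1rn matched the long pattern and one of Nlrp3 the short one, while the windows of Il1b, Tnf, Il1a, Casp1 and Ptgs2 held neither set of letters. A match describes the sequence and is not a measured binding site.

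Levels can be compared between genes only per length, here as RPM per kilobase of annotated exon. Il1b stood highest in aged libraries at 54.3 ± 20.3 RPM per kb, followed by Il1a at 21.7 ± 4.23 RPM per kb (SD, n = 3 each). Tnfaip3 at 14.5 ± 2.36 and Nfkbiz at 14.1 ± 3.45 RPM per kb overlapped each other there, as did each later neighbour in the order Tnf, Nfkbia, Ptgs2, Casp1, Nlrp3 and Il1rn, which ended at 3.44 ± 2.44 RPM per kb (SD, n = 3 each). In young libraries Il1b was at 19.7 ± 7.13 and Il1a at 16.5 ± 2.33 RPM per kb (SD, n = 3 each), and their ranges overlapped. Il1b led at 52.4 ± 12.4 RPM per kb in the libraries labelled deltaMG, ahead of Il1a at 17.7 ± 2.34 RPM per kb (SD, n = 2 each). In the libraries labelled control the order of these genes was the other way round, with Il1a at 20.4 ± 0.648 and Il1b at 15.6 ± 3.80 RPM per kb (SD, n = 2 each). Il1rn was lowest in all 4 groups.

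The ratio of Il1b to Il1a per kilobase was 2.04, 1.76 and 3.90 in the aged libraries, against 0.957, 1.81 and 0.888 in the young. It was 3.15 and 2.71 in the libraries labelled deltaMG, against 0.877 and 0.648 in those labelled control. The aged and young ranges overlapped, through young replicate 2, and the other pair did not. The ratio was chosen after the values were seen and was not tested. Il1a shares exon sequence with the transcript Gm14023 on the opposite strand, which reached 36.6 RPM, and in most libraries its value was not a whole number of reads. Without a stated strand setting, reads of these genes could not be told apart. The antisense gene Il1bos, which overlaps Il1b, reached 1.42 RPM at most.

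**Figure D1:**
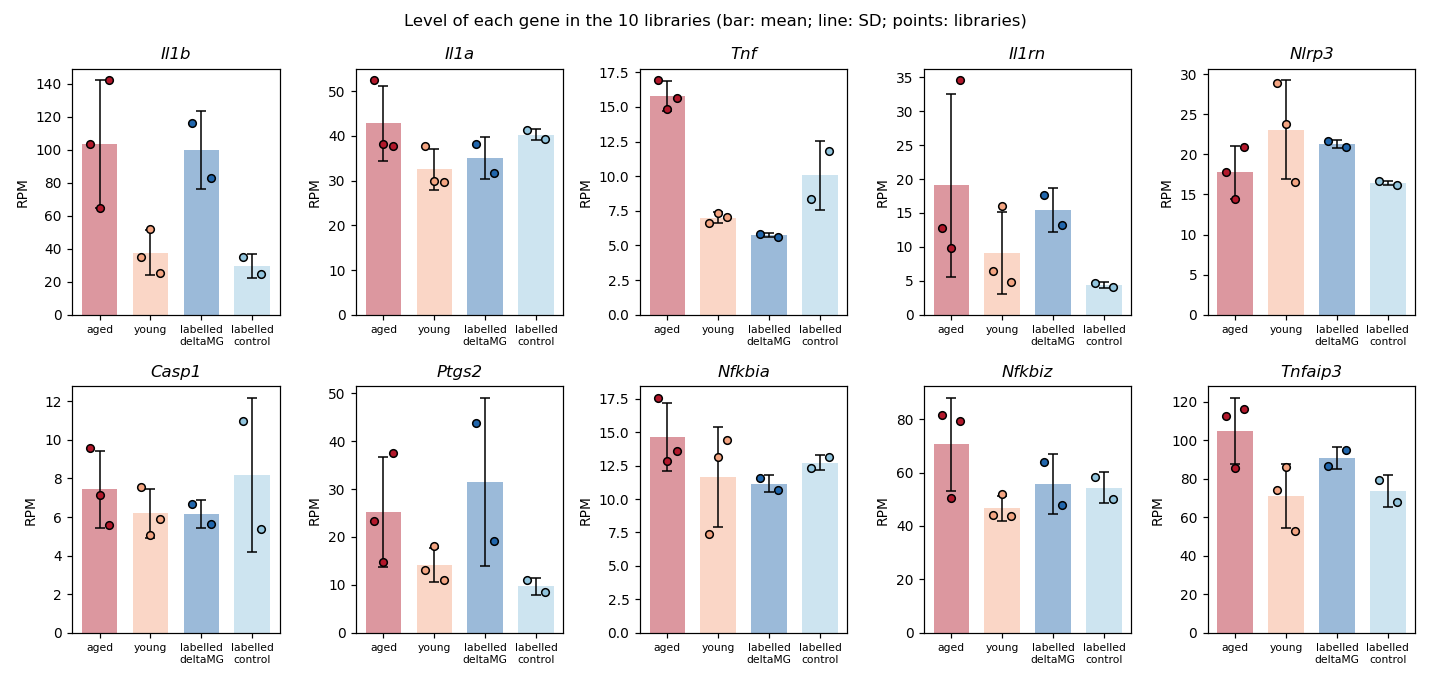
RPM of each of the 10 genes, from 0 on a linear axis, in aged, young, labelled deltaMG and labelled control libraries; bars are means, lines SD and points single libraries. Il1b is higher in every aged than young library and in every library labelled deltaMG than labelled control, while Tnf is highest in the 3 aged libraries, at 14.8 to 16.9 RPM.

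The ageing comparison asked how the transcripts of microglia from aged and young mice differ. Il1b and Tnf rose in aged libraries, and no tested gene of the group fell. Of the 10 genes, 9 had at least 10 RPM in at least 2 libraries and were tested, and Casp1 was not. Tnf reached 10 RPM only in the 3 aged libraries and in control replicate 2, so it entered mainly through the group where it was high. Its ageing call held in each of 24 alternatives, among them a fit without the filter (limma adjusted p at most 0.0303). With limma, 2 of the 9 were called higher at an adjusted p under 0.05, where 3.16% of all 4151 tested genes were, and none was called lower, where 2.99% were (6.14% in either direction). The log2 difference was above 0 for 8 of the 9 genes, as it was for 42.8% of all tested genes. An unadjusted limma p under 0.05 was found for 7 of the 9, and for 894 of all 4151 tested genes. The median log2 difference of the 9 genes was 0.57, against -0.05 over all tested genes. Log2 differences are of log2(RPM + 1), which understates the change of low genes.

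Il1b was at 103, 64.9 and 142 RPM in aged libraries, against 35.0, 52.3 and 25.5 RPM in young ones. Every aged library was above every young one, with aged replicate 2 the lowest of its group and young replicate 2 the highest of the other. The mean was 104 ± 38.7 RPM in aged and 37.6 ± 13.6 RPM in young libraries (SD, n = 3 each). The fitted log2 difference was 1.43 ± 0.27 (SE, limma adjusted p = 0.0081), a 2.69-fold rise on the RPM + 1 scale. Leaving out any 1 of the 10 libraries kept the call, with adjusted p between 0.000709 and 0.0402.

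Tnf was at 16.9, 14.8 and 15.6 RPM in aged libraries, against 6.62, 7.38 and 7.05 RPM in young ones. The libraries of each group lay close together and the groups were far apart. The rise was 2.09-fold, a log2 difference of 1.07 ± 0.19 (SE, limma adjusted p = 0.00512), and the adjusted p was at most 0.0303 when single libraries were left out. Tnf was among the less deeply measured genes, at 39 to 147 reads per library. The groups did not overlap for Il1b and Tnf alone among the 9 genes, both higher in every aged library. Of all tested genes, 8.41% were higher and 15.5% were lower in every aged library, so such gaps were not particular to this group.

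The feedback genes were higher on average in aged libraries without passing the test. Tnfaip3 was at 113, 85.4 and 117 RPM in aged libraries, against 74.4, 86.1 and 53.1 RPM in young ones, where aged replicate 2 lay just below the highest young library. Its log2 difference was 0.57 with a standard error of 0.17 (limma adjusted p = 0.0635). Nfkbiz was at 81.6, 50.6 and 79.4 RPM in aged libraries, against 44.0, 52.0 and 43.8 RPM in young ones, a log2 difference of 0.56 with a standard error of 0.18 (limma adjusted p = 0.0773). Aged replicate 2 lay within the young range here too, and without it both genes passed (adjusted p of 0.0183 for Tnfaip3 and 0.00676 for Nfkbiz). Tnfaip3 also passed without young replicate 2 (0.0421). Both also passed with median-of-ratios rescaling (0.0238 and 0.0403). Nfkbia was at 17.5, 12.8 and 13.6 RPM in aged libraries, against 7.41, 13.1 and 14.4 RPM in young ones, and the groups overlapped (log2 difference 0.34, limma adjusted p = 0.41).

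Il1rn, Ptgs2, Il1a and Nlrp3 did not pass either. Il1rn was at 12.8, 9.79 and 34.5 RPM in aged libraries, against 6.46, 16.1 and 4.89 RPM in young ones. One library of each group stood apart here, aged replicate 3 and young replicate 2, and these are the libraries of their groups with the most S100a8. The log2 difference of 0.94 had a standard error of 0.41 (limma adjusted p = 0.193), and without aged replicate 3 it was 0.43. Ptgs2 was at 23.3, 14.8 and 37.6 RPM in aged libraries, against 13.1, 18.04 and 11.1 RPM in young ones (log2 difference 0.73, limma adjusted p = 0.188). Without aged replicate 2 it passed, at a log2 difference of 1.05 (adjusted p = 0.0365). Il1a was at 52.4, 38.1 and 37.8 RPM in aged libraries, against 37.8, 30.0 and 29.7 RPM in young ones (log2 difference 0.38, limma adjusted p = 0.173). Nlrp3 was the single tested gene of the group with a lower mean in aged libraries, at 17.9, 14.4 and 21.0 RPM, against 28.8, 23.8 and 16.6 RPM in young ones (log2 difference -0.34, limma adjusted p = 0.336). Casp1 reached 10 RPM in no more than 1 library. It was at 9.56, 7.17 and 5.59 RPM in aged and 7.56, 5.08 and 5.90 RPM in young libraries, and in a fit of 17991 genes without the filter its 95% interval ran from -0.34 to 0.78 on the log2 scale.

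The other comparison asked how the libraries labelled deltaMG differ from those labelled control. Il1b and Ptgs2 rose there, and Tnf had a lower mean that did not pass the test. Of the 9 tested genes, 2 were called higher, where 1.20% of all tested genes were, and none was called lower, where 2.58% were (3.78% in either direction). The log2 difference was above 0 for 6 of the 9 genes, as it was for 48.0% of all tested genes. An unadjusted limma p under 0.05 was found for 4 of the 9, and for 780 of all 4151 tested genes. The median log2 difference of the 9 was 0.30, against -0.02 over all tested genes. With 2 libraries a group, the ranges of 5 genes lay above and of 3 genes below those of the libraries labelled control, where 25.2% and 26.6% of all tested genes did so. Those above were Il1b, Il1rn, Nlrp3, Ptgs2 and Tnfaip3, and those below Il1a, Tnf and Nfkbia.

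Il1b was at 117 and 83.2 RPM in the libraries labelled deltaMG, against 34.9 and 24.7 RPM in those labelled control. Both libraries labelled deltaMG lay well above both labelled control. The rise was 3.28-fold, a log2 difference of 1.71 ± 0.33 (SE, limma adjusted p = 0.00875). The call was lost without deltaMG replicate 1 (adjusted p = 0.15), without control replicate 1 (0.0537) and without control replicate 2 (0.126), with log2 differences of 1.47, 1.95 and 1.47. In a fit without the filter the call was lost too, at a limma adjusted p of 0.0521. In the main fit Il1b was the only gene of the group called higher in both comparisons, as 11 of all 4151 tested genes were (0.265%).

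Ptgs2 was at 43.8 and 19.1 RPM in the libraries labelled deltaMG, against 10.996 and 8.46 RPM in those labelled control. The labelled deltaMG libraries differed from each other by more than the lower of them differed from the controls. The rise was 2.82-fold, with a log2 difference of 1.49 and a standard error of 0.39, and its limma adjusted p of 0.0449 was close to the threshold. It was 0.406 without deltaMG replicate 1, at a log2 difference of 0.92, and it was also above 0.05 without either library labelled control, without aged replicate 1, or without young replicate 1 or 2. With a pseudocount of 5 it was 0.0556, and with the replicate number as a block 0.0711.

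Il1rn was at 17.7 and 13.2 RPM in the libraries labelled deltaMG, against 4.76 and 4.09 RPM in those labelled control. The log2 difference was 1.59 with a standard error of 0.50 (limma adjusted p = 0.0953). It passed without aged replicate 2 (adjusted p = 0.0496) or 3 (0.0146), which enter through the shared estimate of the spread. It also passed in a fit of these 4 libraries alone (limma adjusted p = 2.03e-06). With 2 libraries a group, that value leans on a spread borrowed from other genes. The same fit called 510 of all genes, against 157 in the main fit. Tnf was at 5.85 and 5.64 RPM in the libraries labelled deltaMG, against 8.32 and 11.8 RPM in those labelled control (log2 difference -0.70, standard error 0.23, limma adjusted p = 0.117). Nlrp3 was at 21.6 and 21.0 RPM in the libraries labelled deltaMG, against 16.6 and 16.2 RPM in those labelled control (log2 difference 0.36, limma adjusted p = 0.462).

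The feedback genes and Il1a differed little in this pair of groups. Tnfaip3 was at 86.6 and 94.9 RPM in the libraries labelled deltaMG, against 79.5 and 67.8 RPM in those labelled control, with a 95% interval of the log2 difference from -0.15 to 0.75. Nfkbiz was at 63.8 and 47.9 RPM in the libraries labelled deltaMG, against 58.4 and 50.2 RPM in those labelled control, with an interval from -0.44 to 0.49. Nfkbia was at 11.6 and 10.7 RPM in the libraries labelled deltaMG, against 12.3 and 13.1 RPM in those labelled control, with an interval from -0.75 to 0.40. Il1a was at 38.3 and 31.8 RPM in the libraries labelled deltaMG, against 41.2 and 39.4 RPM in those labelled control, with an interval from -0.61 to 0.21. Casp1 was at 6.69 and 5.64 RPM in the libraries labelled deltaMG, against 10.996 and 5.36 RPM in those labelled control, where 1 library set the mean.

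**Figure D2:**
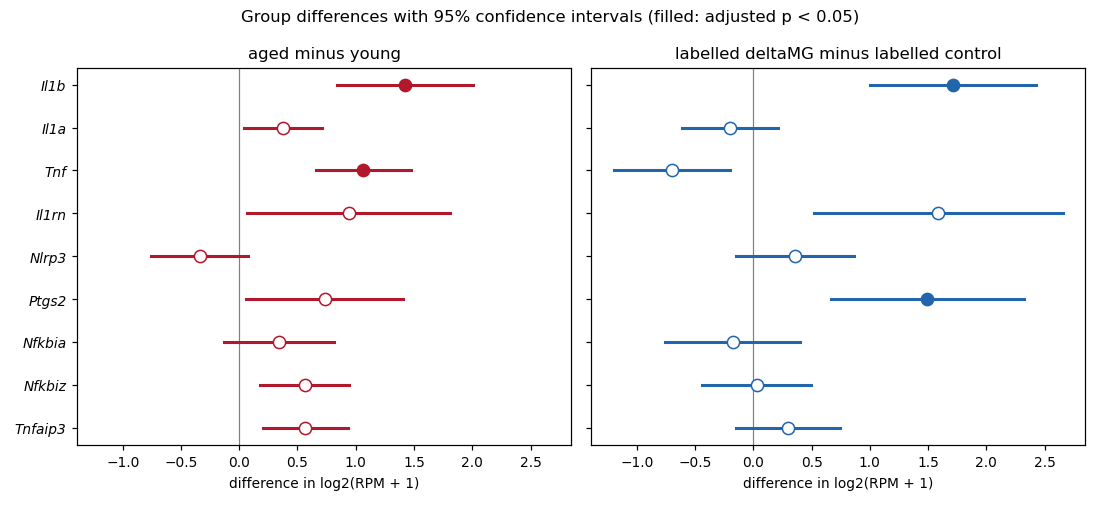
Difference in log2(RPM + 1) of each tested gene, aged minus young on the left and labelled deltaMG minus labelled control on the right; points are estimates, filled where limma's adjusted p is under 0.05, and lines are 95% confidence intervals. Il1b is filled on both sides, Tnf lies to the right of 0 on the left (1.07) and to the left of 0 on the right (-0.70), and Ptgs2 is filled on the right.

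The effects of the 2 comparisons were then set against each other in the same fit. Tnf was the 1 gene of the 9 whose effects differed, where 4.79% of all tested genes did. As said above, it met the filter mainly through its aged libraries. Its log2 difference was 1.07 for aged minus young and -0.70 for labelled deltaMG minus labelled control, which differ by 1.76 with a standard error of 0.30 (limma adjusted p = 0.00334). The adjusted p stayed between 0.00421 and 0.0292 when single libraries were left out. For Il1b the effects differed by -0.29, with a 95% interval from -1.21 to 0.64, which leaves room for effects that differ by more than 2-fold in one direction.

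Wider lists of the same pathways were examined with the same test. They were chosen with earlier results of these data known, so their counts are a description and add no separate evidence. Of 13 tested members among 23 other inducible NF-kB targets, 6 rose and none fell in aged libraries, where 3.16% of all tested genes rose and 2.99% fell. Their median log2 difference was 0.52. The 4 with the smallest p were Cd83, a maturation marker, Tlr2, a receptor for bacterial lipoproteins, the chemokine gene Ccl3 and Ccrl2, a chemokine-binding receptor, at 1.78-fold, 1.77-fold, 1.78-fold and 1.69-fold. In the libraries labelled deltaMG 4 of the 13 fell and none rose, where 2.58% of all tested genes fell and 1.20% rose. Their median was -0.22. They were Csf1, a growth factor of macrophages, at 2.69-fold, the adhesion molecule gene Vcam1 at 3.44-fold, Cd83 at 1.86-fold and Plek at 1.57-fold lower. The effects of the 2 comparisons differed for 6 of the 13, all with the larger value for ageing, where 2.67% of all tested genes did so in that direction.

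Cd83 was at 62.2, 52.1 and 47.0 RPM in aged libraries, against 31.2, 26.7 and 31.1 RPM in young ones. It was at 35.0 and 28.6 RPM in the libraries labelled deltaMG, against 62.4 and 57.5 RPM in those labelled control. Cd83 was thus highest in the aged libraries and in those labelled control, as Tnf was, and its effects differed by 1.73 on the log2 scale (limma adjusted p = 0.000406). Csf1 was at 19.9, 24.0 and 26.4 RPM in aged libraries, against 13.9, 14.6 and 10.1 RPM in young ones. It was at 10.8 and 8.68 RPM in the libraries labelled deltaMG, against 26.6 and 28.9 RPM in those labelled control. Its effects differed by 2.26 (limma adjusted p = 0.000263).

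None of the tested signalling genes upstream was called in either comparison, where 6.14% and 3.78% of all tested genes were. Lists of 5 to 10 tested genes are too short to tell no call from such shares. None of 6 tested genes of 18 in the interleukin-1 family and receptor list, of 10 of 14 inflammasome partners, of 8 of 15 in TNF processing and receptor signalling, or of 5 of 9 NF-kB subunits and kinases passed with limma, although the effects on Naip2, an inflammasome receptor gene with close paralogs, differed (0.93, adjusted p = 0.0258). Receptor genes such as Il1r1 and Il1rap, and Rela, a subunit of NF-kB, were below the filter and were not tested. None of 7 tested genes of 12 in prostaglandin and leukotriene synthesis passed, in a list as short as these. Among 7 tested of 16 other feedback and mRNA decay genes, Zfp36l1, which encodes an RNA-binding protein that promotes decay of AU-rich mRNAs, rose 1.69-fold in the libraries labelled deltaMG, at 94.4 and 124 RPM, against 62.1 and 65.3 RPM in those labelled control (limma adjusted p = 0.0314). Its effects differed too, by -0.85 (adjusted p = 0.0448).

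Genes that respond quickly to cell handling were checked beside these results. Of 18 tested genes of 20 in the immediate early and dissociation-linked list, only Nr4a1 was called in aged libraries, at 1.66-fold higher, where 3.16% of all tested genes were called higher. In the libraries labelled deltaMG Nr4a1 rose 1.85-fold, and the heat shock genes Hspa1a and Hspa1b rose 2.25-fold and 2.36-fold, where 1.20% of all tested genes rose. The effects on Hspa1b differed by -1.04 (limma adjusted p = 0.0422). The list summed to 2306 to 2635 RPM in aged and 2154 to 2542 RPM in young libraries. It summed to 2163 to 2600 RPM in the libraries labelled deltaMG, against 1681 to 1867 RPM in those labelled control, without overlap. The part of this difference in the results for Il1b and Ptgs2 was not tested.

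S100a8 differed widely between libraries. It was at 311, 156 and 773 RPM in aged libraries, against 143, 224 and 75.7 RPM in young ones, and at 282 and 160 RPM in the libraries labelled deltaMG, against 91.8 and 55.8 RPM in those labelled control. Aged replicate 3 had the most and control replicate 2 the least. Group means of S100a8 were higher in aged libraries (log2 difference 1.31, limma adjusted p = 0.112) and in those labelled deltaMG (1.56, adjusted p = 0.144), without passing the test. The 16 neutrophil markers, 13 of them tested, summed to 991 to 4589 RPM in aged and 569 to 1479 RPM in young libraries. They summed to 1234 to 1857 RPM in the libraries labelled deltaMG, against 472 to 713 RPM in those labelled control. All 13 tested, S100a8 among them, had a log2 difference above 0 in both comparisons, with medians of 1.08 and 1.62. Over all tested genes 42.8% and 48.0% were above 0. Only Cxcr2 was called, higher in each comparison, where 3.16% and 1.20% of all tested genes were. None of these markers was at 0 in all libraries. In bulk libraries, more cells of a type and more RNA per cell cannot be told apart.

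Il1b, Il1rn and Ptgs2 followed S100a8 from library to library, and Tnf, Il1a and Nfkbia did not. Within each of the 4 groups, the libraries stood in the same order for Il1b, Il1rn and Ptgs2 as for S100a8. Among all 4150 other tested genes 156 had that order in all 4 groups (3.76%), and among the other 6 tested genes of the group none did. In the aged group, for instance, replicate 3 was above replicate 1 and replicate 1 above replicate 2 for S100a8 and for each of these 3 genes.

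The slope within groups was estimated with limma from a model with the 4 groups and log2 S100a8 of the same library. That model leaves fewer residual degrees of freedom than the main fit, and its p-values lean on a spread borrowed from other genes. A rise of 1 unit of log2 S100a8 went with a rise of 0.76 in Il1rn (standard error 0.12, adjusted p = 5.64e-05), of 0.58 in Ptgs2 (standard error 0.10, adjusted p = 0.000233) and of 0.54 in Il1b (standard error 0.07, adjusted p = 5.45e-06). These were the 3 of the 9 genes called, where 6.12% of all tested genes were, nearly all with a positive slope (6.00%). The slope was above 0 for 7 of the 9 genes, as it was for 65.6% of all tested genes. Without aged replicate 3 the slope of Il1rn was 0.68 with an adjusted p of 0.0529. Those of Il1b and Ptgs2 kept an adjusted p of at most 0.0251 when any single library was left out.

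Nfkbiz and Tnfaip3 had smaller slopes, 0.25 and 0.24, which did not pass (adjusted p = 0.0584 and 0.0597). That of Nlrp3 was 0.23 (adjusted p = 0.202). The slopes of Tnf, Il1a and Nfkbia were -0.01, 0.02 and -0.02, each with an adjusted p over 0.9. Their 95% intervals, from -0.25 to 0.23 for Tnf, from -0.16 to 0.20 for Il1a and from -0.27 to 0.22 for Nfkbia, did not reach the estimates for Il1b, Ptgs2 or Il1rn. Differences between these slopes were not tested. The slope of Casp1, fitted without the filter, was -0.02, with an interval from -0.35 to 0.30.

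**Figure D3:**
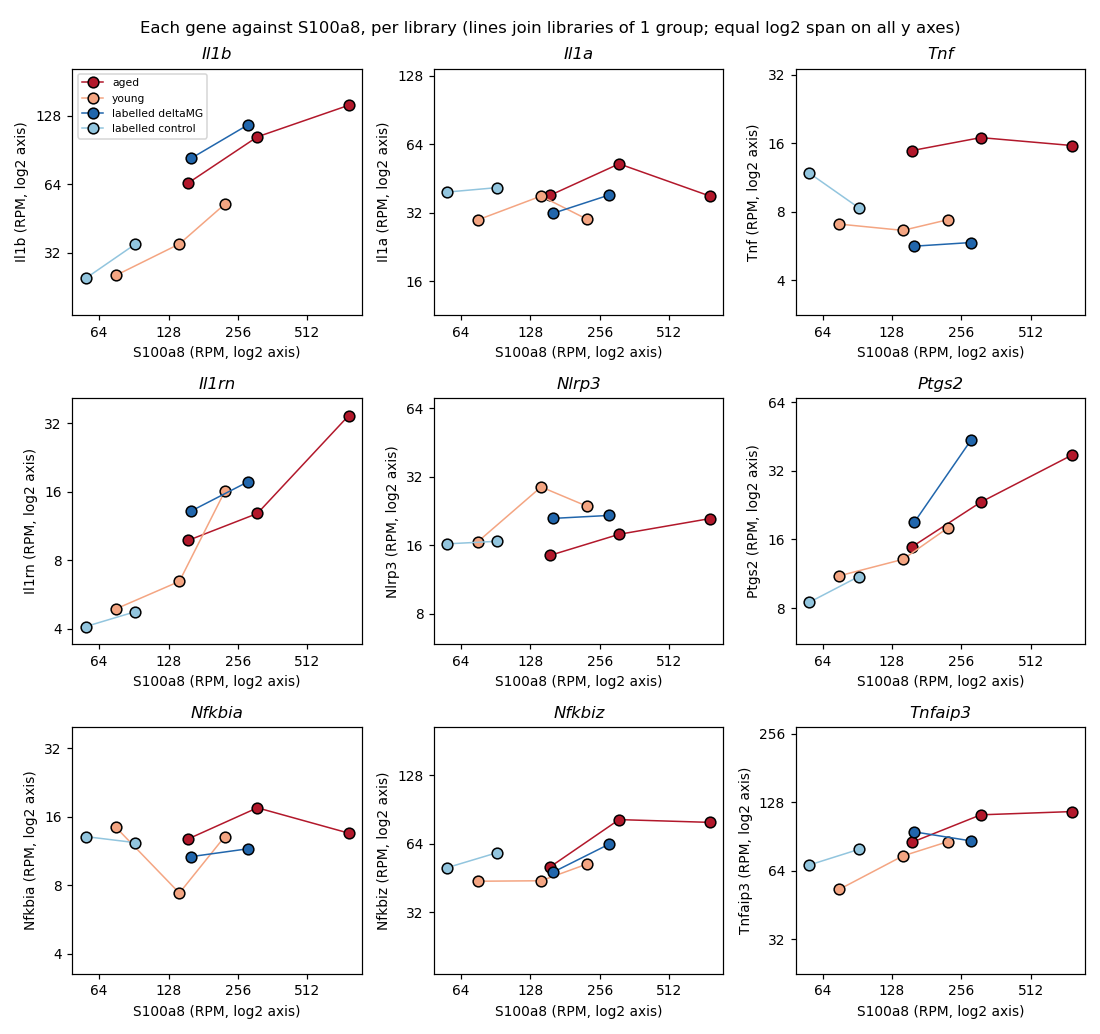
Each tested gene (vertical, RPM on a log2 axis) against S100a8 (horizontal, RPM on a log2 axis); points are libraries, and lines join the libraries of a group. For Il1b, Il1rn and Ptgs2 every line climbs, while the lines of Tnf share no direction (in the libraries labelled control it is lower where S100a8 is higher) and the aged libraries, at 14.8 to 16.9 RPM, lie above all others.

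Across all 10 libraries, Pearson's r with S100a8 on the log2 scale was 0.95 for Il1rn, 0.91 for Il1b and 0.90 for Ptgs2, and Spearman's rho was 0.92, 0.95 and 0.94. With 100000 permutations and adjustment over 4150 genes, the p of r was 0.00249, 0.00532 and 0.013, and that of rho 0.0262, 0.0106 and 0.0197. By r 3 of the 9 genes were called, where 4.46% of all genes were, and by rho 4 of the 9, where 2.82% were. The fourth was Tnfaip3, with r of 0.84 (adjusted permutation p = 0.0563) and rho of 0.94 (adjusted permutation p = 0.0132). For Tnf, r was 0.32 and rho 0.24 (adjusted permutation p = 0.678 and 0.827). The libraries share group effects and differ in depth, so these values mix differences between and within groups. Without the libraries farthest from the S100a8 median, aged replicate 3 and control replicate 2, r was 0.90 for Il1rn, 0.87 for Il1b and 0.84 for Ptgs2 over 8 libraries (exact permutation p = 0.00345, 0.00657 and 0.00513). After adjustment none of the 4150 genes passed at that size, although 360 had an unadjusted exact permutation p under 0.05. For deviations from group means, r was 0.98 for Il1b, 0.93 for Il1rn and 0.91 for Ptgs2, and -0.06 for Tnf, given as a description.

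With log2 S100a8 as a covariate, a fit that adjusts linearly for that gene, Il1b and Tnf remained higher in aged libraries. The log2 difference was 0.71 for Il1b (1.43 without the covariate, limma adjusted p = 0.0133) and 1.08 for Tnf (1.07 without it, adjusted p = 0.0205). Il1b also remained higher in the libraries labelled deltaMG, at 0.87 (1.71 without the covariate, limma adjusted p = 0.00734). Ptgs2 did not, at 0.60 (1.49 without it, limma adjusted p = 0.257), and for aged minus young it was -0.02 (0.73 without it). Il1rn was at -0.06 (0.94 without it) for aged minus young and at 0.40 (1.59 without it) for the libraries labelled deltaMG. The difference between the effects on Tnf was unaffected in size, at 1.76 with S100a8 as covariate (limma adjusted p = 0.000609). With the mean log2 value of the 16 neutrophil markers as covariate, the same genes were called in each comparison, Il1b at 0.81 and Tnf at 1.08 for ageing and Il1b at 0.92 for the libraries labelled deltaMG. Over all tested genes, 1.78% were called for ageing, 3.61% for the libraries labelled deltaMG and 9.49% for the difference of effects with S100a8 as covariate. With the neutrophil markers the shares were 3.85%, 4.77% and 10.9%, so 1 of 9 genes with differing effects was near the share of all genes in these fits.

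**Figure D4:**
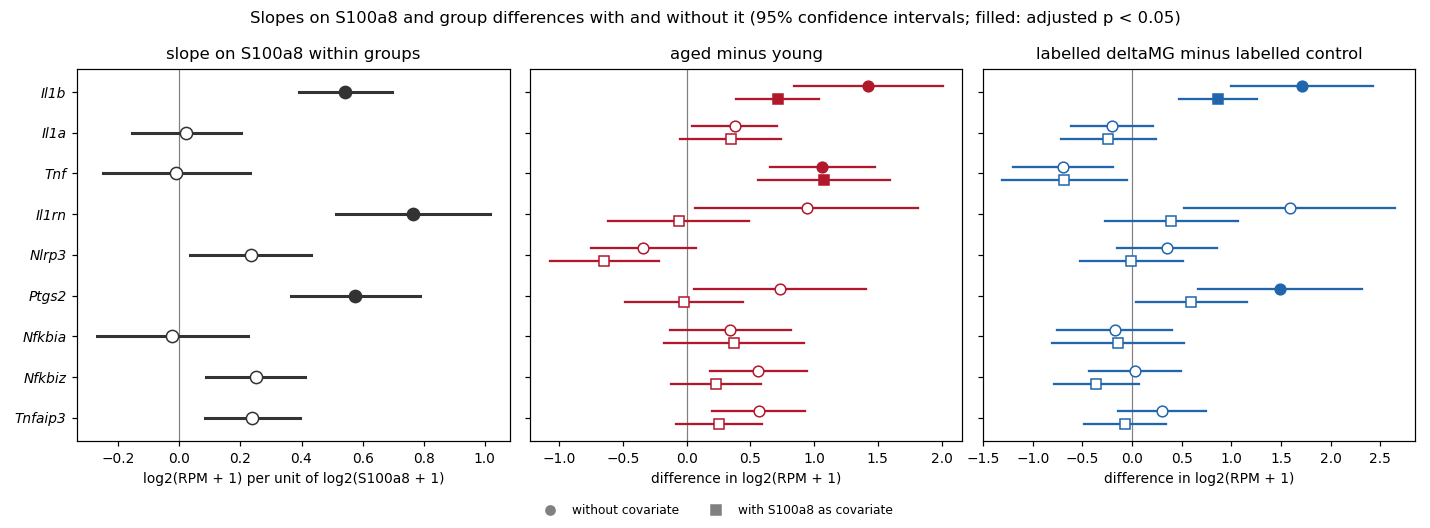
Left, slope of each tested gene on log2(S100a8 + 1) within groups; middle and right, group differences in log2(RPM + 1) without a covariate (circles) and with S100a8 as covariate (squares), all with 95% confidence intervals and filled where limma's adjusted p is under 0.05. The squares of Il1b lie nearer to 0 than its circles in both comparisons (0.71 against 1.43, and 0.87 against 1.71), while both symbols of Tnf lie close together.

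Markers of neutrophils and monocytes had slopes on S100a8 too. Of the 12 tested neutrophil markers besides S100a8, 11 had a positive slope that passed, and of 6 tested monocyte markers 5 did, where 6.00% of all tested genes did. The 8 monocyte markers summed to 145 to 437 RPM in aged and 52.5 to 101 RPM in young libraries, without overlap, and 4 of the 6 tested rose in aged libraries, where 3.16% of all tested genes did. They summed to 104 to 148 RPM in the libraries labelled deltaMG, against 41.3 to 57.5 RPM in those labelled control. The 7 border macrophage markers summed to 31.7 to 83.9 RPM in aged and 26.6 to 29.5 RPM in young libraries, without overlap. Of the 2 tested, F13a1 rose in aged libraries. These markers summed to 48.3 to 49.8 RPM in the libraries labelled deltaMG, against 38.5 to 47.1 RPM in those labelled control. T cell and B cell markers summed to at most 0.889 and 3.05 RPM in any library. None of 5 erythroid markers was tested. They summed to 3.58 to 12.5 RPM in aged and 0.655 to 3.34 RPM in young libraries. In the libraries labelled deltaMG they summed to 1.74 to 9.24 RPM, against 0.0743 to 0.212 RPM in those labelled control. Neither pair of ranges overlapped. The part of monocytes, border macrophages or erythroid cells in the results for Il1b and Tnf was not tested.

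The 3 tested genes closest to each member in pattern, by Pearson's r of log2 values over the 10 libraries, differed between members. For Il1b they were Zc3hav1, Clec4e and Cd300ld, at r of 0.98, 0.98 and 0.97. For Il1rn they were Samhd1, Fpr1 and Mcemp1, at 0.98, 0.98 and 0.98, and for Ptgs2 Mcemp1, G0s2 and Ccr1, at 0.96, 0.95 and 0.94. For Tnf they were Cnst, Arl5b and Gm14023, at 0.95, 0.91 and 0.90, the last being the transcript opposite Il1a. For Il1a they were Tatdn2, Cd83 and Pkib, at 0.82, 0.81 and 0.79, the weakest likeness of any member. For Nlrp3 they were Mbd6, Taz and Elk4, and for Nfkbia Gvin1, Zfand5 and Ccl4. For Nfkbiz they were Gpcpd1, Srgn and Olr1, and for Tnfaip3 Cxcr4, Ppp1r15a and Gm1966. None of the 27 places was taken by another member. None was on the neutrophil list, but the genes nearest to Il1b, Il1rn and Ptgs2, other than Zc3hav1, each had a called positive slope on S100a8. Over all tested genes the share was 6.00%. These neighbours were picked for likeness to genes that follow S100a8 in the same libraries, so their slopes add no separate evidence. The slope was 0.94 for Fpr1, a formyl peptide receptor gene that neutrophils express (limma adjusted p = 3.74e-05), 0.73 for Clec4e (3.39e-05), 0.68 for G0s2 (0.0037) and 0.57 for Cd300ld (0.00449).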

How the data were processed

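Total RNA of microglia underwent NuGEN Ovation amplification and was made into Ion Xpress libraries, per the labels' protocols. FastQC and the builds GRCm38 and mm10 are named in the submitters' processing notes. Aligner, counter, annotation, strand setting and scaling: not given in the sources used here. The deposited table gives no unit and was read as RPM, since the low values of a library, less a constant of 0.0001, come in steps of 1 size. Between 94.4% and 94.7% of a library's values of up to 500 reads lay within 0.05 of a whole number. The remainder were fractions, and no count model was used.

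Testing was done on log2(RPM + 1) with limma 3.58.1 (R 4.3.3) for genes reaching 10 RPM in 2 or more libraries, in 1 fit of 4 groups with a prior variance that depends on the mean (residual degrees of freedom: 6). P-values were adjusted over all tested genes by the Benjamini-Hochberg method. The fit was tested on simulated data. Exon lengths were those of GENCODE M21 (GRCm38), and figures were drawn with matplotlib 3.10.9.

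The genes, lists and tests were chosen with earlier results of these data known. Named genes were the 10 members, S100a8 and Rab7, up to 4 called genes per list and comparison with the smallest p, and the 3 genes most like each member. Alternatives covered the filter, pseudocount, scaling, moderation, weights, threshold, samples in the fit, replicate block, covariates and single libraries left out. A minimum of 1 RPM was added after the data were seen.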

Additional observations from a re-analysis of the deposited data

Results flagged for a closer look

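The effects on Tnf differed between the comparisons. The log2 difference was 1.07 for aged minus young and -0.70 for the libraries labelled deltaMG minus those labelled control, and these differ by 1.76 (standard error 0.30, limma adjusted p = 0.00334). Tnf was at 14.8 to 16.9 RPM in aged libraries, against 6.62 to 7.38 RPM in young ones. It was at 5.64 and 5.85 RPM in the libraries labelled deltaMG, against 8.32 and 11.8 RPM in those labelled control. The fall in the libraries labelled deltaMG did not pass the test by itself.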

How the results depend on the processing

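For ageing, 2 of the 9 genes were called, against 4 with median-of-ratios rescaling, equal totals without Rn45s, array weights or an adjusted p under 0.1, and 2 to 5 with single libraries left out (5 without aged replicate 2). For the libraries labelled deltaMG, 2 were called, against 0 with every gene above 0 in the fit, and 1 with a minimum of 50 RPM, a pseudocount of 5, no mean-dependent trend, or S100a8 or the neutrophil score as covariate. With single libraries left out it was 0 to 3, with 0 without deltaMG replicate 1 or either control replicate and 3 without aged replicate 2. Without aged replicate 3 the count for the libraries labelled deltaMG was 3 as well. The differing effect on Tnf was not testable with the 50 RPM minimum, where 0 were called. The slope on S100a8 was called for 3 genes, against 5 with array weights or an adjusted p under 0.1 and 2 to 4 with single libraries left out, and the correlation for 3, against 0 without the 2 farthest libraries. Over all genes, 255 were called for ageing, against 152 with no filter, 116 at 50 RPM, 445 at an adjusted p under 0.1, 121 with these groups alone and 96 to 422 with single libraries left out. For the libraries labelled deltaMG 157 were called, against 103 with no filter, 62 at 50 RPM, 239 with median-of-ratios rescaling, 246 with equal totals, 357 with array weights, 287 at an adjusted p under 0.1, 510 with these groups alone and 25 to 317 with single libraries left out. Slopes near 0 changed sign: Il1a to -0.019 (median of ratios), -0.022 (equal totals) and -0.034 (quantile), and Nfkbia to 0.010 (array weights). With single libraries left out, slopes ran from -0.051 to 0.17 for Il1a, -0.14 to 0.088 for Nfkbia and -0.068 to 0.028 for Tnf, the difference of effects on Il1b from -0.55 to 0.011, and Nfkbiz in the libraries labelled deltaMG from -0.17 to 0.23. With S100a8 as covariate the ageing difference turned to -0.061 for Il1rn and -0.022 for Ptgs2. The difference for the libraries labelled deltaMG turned to -0.0076 for Nlrp3, -0.36 for Nfkbiz and -0.071 for Tnfaip3, and with the neutrophil score to -0.022, -0.31 and -0.074. Where no construction is named, the cause was not tested. Nothing in the labels pairs libraries by replicate number. Same-numbered aged and young libraries deviated with correlations of -0.137, -0.244 and -0.392, and none of these correlated best with its own number. The Rab7 groups gave 0.116 for equal and -0.116 for unequal numbers, which mirror each other by construction with 2 libraries a group and do not settle whether those are paired. With a replicate block, 140 genes were called for ageing and 96 for the libraries labelled deltaMG, with 1 of the 9 (Il1b, while Ptgs2 was lost), and the slopes of Il1a and Tnf were -0.018 and 0.011. With 39 to 147 reads of Tnf and 29 to 272 of Il1rn a library, and 2 libraries in the smaller groups, the precision of a difference is that of its standard error, and no detection limit was measured.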
